A study of Mus musculus with 9 samples.

Results

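Proteasome genes were examined in CD4+ T cells sorted from the inflamed colon. They were found by symbol, as every row of the deposited table whose name starts with Psma, Psmb, Psmc, Psmd, Psme, Psmf or Psmg and a digit, which gave 50 of 23415 genes. The rule itself uses symbols and no measured value, but it was set with earlier results of these data known. In all 9 libraries the donor cells were naive CD4+ CD25- CD45RBhigh T cells, injected into Rag1-/- mice, which lack their own T and B cells, and taken from the colon at the peak of the resulting transfer colitis, 5000 CD4+ cells per library. In 4 libraries the donors were CD160 knockout mice and in 5 they were wildtype littermates, here called controls. CD160 is a receptor of lymphocytes that binds HVEM. The labels do not give the deleted part of Cd160, and neither the age of the mice nor whether each library came from its own recipient, so any error or p-value given here covers variation among the libraries alone, which may be technical.

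The proteasome is the main protease of the cytosol and nucleus and degrades proteins marked with ubiquitin. Its 20S core is a stack of alpha and beta rings, in which 3 beta subunits carry the active sites, and it is capped by a 19S particle of ATPases (Psmc) and non-ATPase subunits (Psmd) or by the activator PA28 (Psme1 and Psme2). In the immunoproteasome, common in lymphocytes and induced elsewhere by interferon gamma, the standard active subunits Psmb5, Psmb6 and Psmb7 are replaced by Psmb8, Psmb9 and Psmb10, which favours the cutting of peptides suited to MHC class I. 

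Values are TPM, a length-scaled relative abundance, which are corrected for transcript length and library total, and the read depth behind them is unknown. Cd160 stood at 5.44 to 18.8 TPM in knockout and 31.8 to 212.4 TPM in control libraries, without overlap. Control replicate 1 stood apart: it had 7308 genes at 1 TPM or more against 11088 to 11711 in the other libraries, and its median Spearman correlation with them across genes was 0.737, against 0.936 to 0.955. Genes with transcripts under 1000 bp held 66.8% of its TPM, compared with 33.1% to 38.1% elsewhere. The T cell markers Cd3e, Cd4 and Lck were present in all 9 libraries, but macrophage transcripts were also high and uneven. The 10 macrophage and monocyte markers summed to between 8477 and 15187 TPM in knockout libraries, between 2341 and 9392 TPM in control replicates 2 to 5, and to 1003 TPM in control replicate 1, with no marker at 0. Most cells make proteasomes, so the values below may include RNA of such cells, and their part in the results was not tested.

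In the 8 libraries other than control replicate 1, proteasome transcripts were abundant and steady. The 50 genes together held 10458 to 11809 TPM in knockout libraries and 10906 to 11356 TPM in control replicates 2 to 5. Of the 50, 49 had at least 1 TPM in at least 4 libraries and were tested. The exception, Psma8, an alpha subunit of male germ cells, stood between 0 and 0.89 TPM. Psmb11, the active subunit of thymic epithelium, passed this filter at 0.73 to 1.39 TPM in those 8 libraries. The symbol rule also takes in Psmc3ip, a cofactor of meiotic recombination and no proteasome subunit, which is counted among the 49.

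On the TPM scale, which is per transcript length, the standard core genes had a higher median than the Psmc and Psmd genes, with overlapping ranges. Cap genes under other symbols were not counted here, and the Psmd genes include assembly factors. The 14 standard core subunits, Psma1 to Psma7 and Psmb1 to Psmb7, averaged between 126 TPM for Psmb7 and 664.6 TPM for Psmb1 over the 8 libraries, with a median of 305.7 TPM. The 6 ATPases averaged between 98.6 TPM (Psmc6) and 208.6 TPM (Psmc3), with a median of 145.4 TPM. The 14 Psmd genes had a median of 101.6 TPM, from 20.0 TPM for the assembly factor Psmd9 to 241.7 TPM for the ubiquitin receptor Psmd4. Both PA28 subunits lay among the highest, Psme1 at 622.9 and Psme2 at 784.2 TPM, while the nuclear activator Psme3 averaged 10.1 and the large activator Psme4 4.19 TPM. The 4 assembly chaperones Psmg1 to Psmg4, which help build the alpha ring, averaged between 35.2 and 81.4 TPM.

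**Figure D1:**
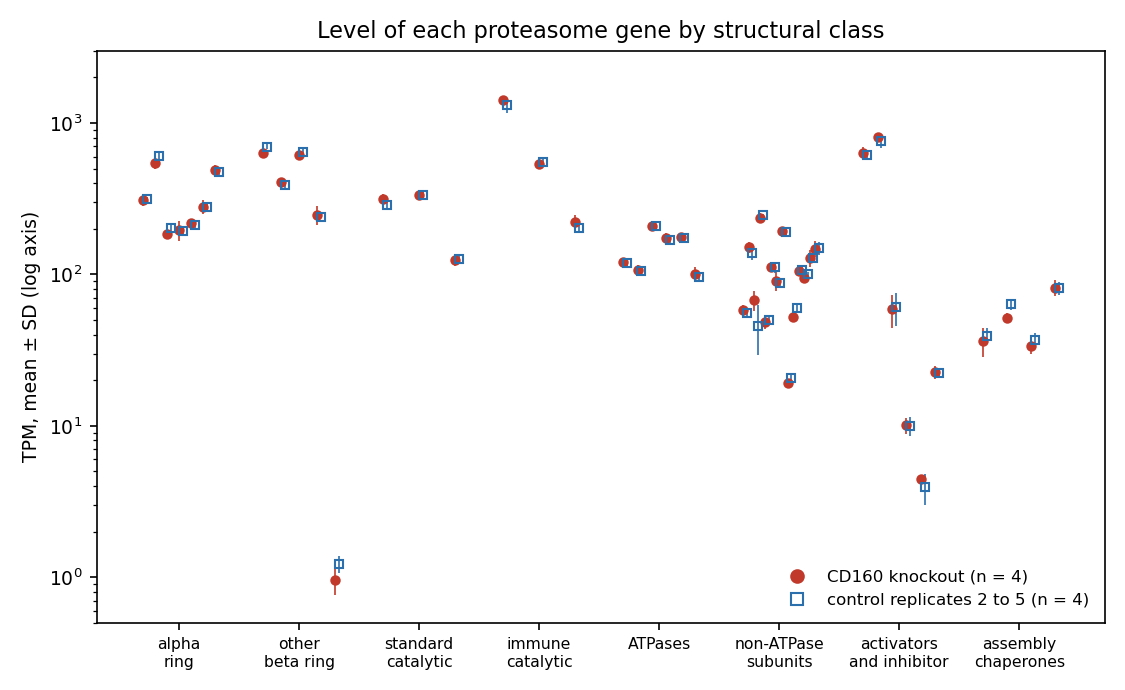
Mean TPM ± SD (log axis) of 48 proteasome genes by structural class, in 4 knockout libraries (filled red circles) and control replicates 2 to 5 (open blue squares); each pair of symbols is 1 gene, Psma8 and Psmc3ip are not drawn. The pairs lie close together in every class, and Psmb8 is the highest point, whereas Psmb11, near 1 TPM, is the lowest.

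Each immune subunit exceeded the standard one that it replaces in every library, but for the Psmb9 and Psmb6 pair in control replicate 1. Psmb8 (chr17:34197721-34201454, GRCm38, plus strand), which takes the place of Psmb5, had 1466, 1498, 1338 and 1378 TPM in the knockout libraries, in replicate order, and 654, 1389, 1262, 1439 and 1129 TPM in the controls. Its mean over the 8 other libraries, 1362 TPM, was the highest of all 50 genes and ranked 121 among the 23415 genes of the table. Psmb5 (chr14:54614119-54618022, minus strand), the standard chymotrypsin-like subunit, stood at 348.2, 308.4, 287.4 and 308.9 TPM in knockout and at 116.3, 289.1, 266.2, 302.7 and 294.6 TPM in control libraries. For both genes the knockout range overlapped that of control replicates 2 to 5, and control replicate 1 was the lowest of all 9.

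Psmb9 (chr17:34181987-34187764, minus strand), the counterpart of Psmb6, stood at 523.2, 527.7, 514.8 and 564.0 TPM in knockout and at 154.0, 567.3, 579.8, 572.7 and 503.3 TPM in control libraries. Psmb6 (chr11:70525367-70527858, plus strand), the standard caspase-like subunit, stood at 366.6, 336.0, 320.2 and 314.9 TPM in knockout and at 213.6, 348.2, 339.2, 336.1 and 312.6 TPM in control libraries. The groups overlapped again for both. Psmb10 (chr8:105935735-105938444, minus strand), the counterpart of Psmb7, stood at 245.8, 221.6, 184.9 and 234.1 TPM in knockout and at 117.3, 195.2, 207.5, 223.5 and 186.1 TPM in control libraries. Psmb7 (chr2:38588036-38644087, minus strand), the standard trypsin-like subunit, stood at 131.2, 127.4, 108.0 and 133.1 TPM in knockout and at 14.0, 121.0, 131.3, 117.6 and 138.3 TPM in control libraries. Psmb7 was the lowest of the 6 in every library.

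**Figure D2:**
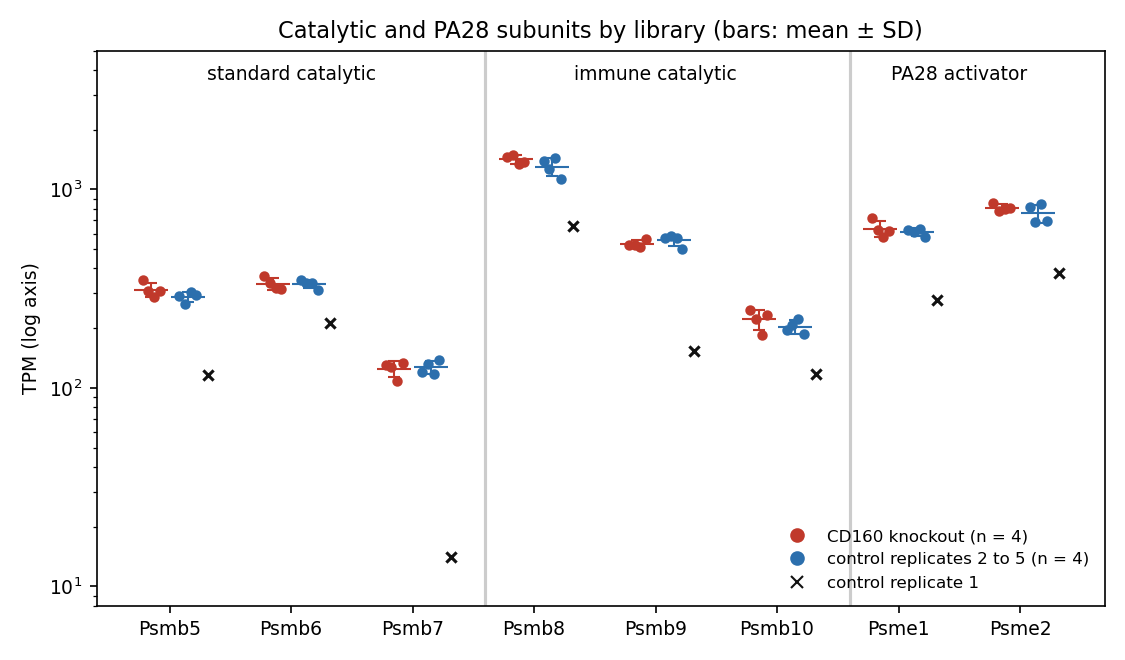
TPM (log axis) of the 6 active-site subunits and the PA28 subunits in each library, with mean ± SD of the 4 knockout libraries (red) and of control replicates 2 to 5 (blue), and control replicate 1 as a cross. Red and blue points overlap for each gene, Psmb8 is highest at 1129 to 1498 TPM outside control replicate 1, and the cross lies below all other points.

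None of the 6 active-site genes was called. The limma fits ran over all genes on log2(TPM + 1), with Benjamini-Hochberg adjusted p values over all genes and a threshold of 0.05; without control replicate 1 the log2 difference, knockout minus control, was 0.13 for Psmb8 (standard error 0.086, 95% interval -0.069 to 0.32, adjusted p = 0.602), -0.060 for Psmb9 (0.068, -0.21 to 0.094, 0.789) and 0.12 for Psmb10 (0.10, -0.11 to 0.35, 0.692). Among the standard subunits it was 0.12 for Psmb5 (0.078, -0.059 to 0.30, 0.594), 0.00032 for Psmb6 (0.072, -0.16 to 0.16, 0.999) and -0.026 for Psmb7 (0.093, -0.24 to 0.19, 0.949). With all 9 libraries these differences were between 0.13 (Psmb6) and 0.59 (Psmb7), with adjusted p values from 0.745 to 0.792, against a median of 0.46 over all genes. Median-of-ratios scaling turned all 6 of these 9-library differences negative, from -0.50 for Psmb6 to -0.019 for Psmb7.

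The ratio of an immune subunit to the standard one it replaces does not move with the library total. Psmb8 stood at 4.55 ± 0.277 times the TPM of Psmb5 in knockout libraries (SD, n = 4), at 4.53 ± 0.469 times in control replicates 2 to 5 (SD, n = 4), and at 5.62 times in control replicate 1. Psmb9 over Psmb6 was 1.60 ± 0.150 in knockout and 1.66 ± 0.0510 in control replicates 2 to 5 (SD, n = 4 each). Psmb10 over Psmb7 was 1.77 ± 0.0706 and 1.61 ± 0.227 (SD, n = 4 each). All 3 ratios overlapped between the groups. In control replicate 1 the latter ratios were 0.721 and 8.37, outside the range of the other 8 libraries in opposite directions. The summed TPM of the 3 immune subunits made up 72.5% to 74.4% of the 6 in knockout libraries, 70.9% to 74.7% in control replicates 2 to 5, and 72.9% in control replicate 1. As a difference of mean log2(TPM + 1), immune minus standard, the groups stood at 1.22 ± 0.0451 and 1.19 ± 0.125 (SD, n = 4 each), and at 1.29 ± 0.237 in all 5 controls, with no test made on this score.

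**Figure D3:**
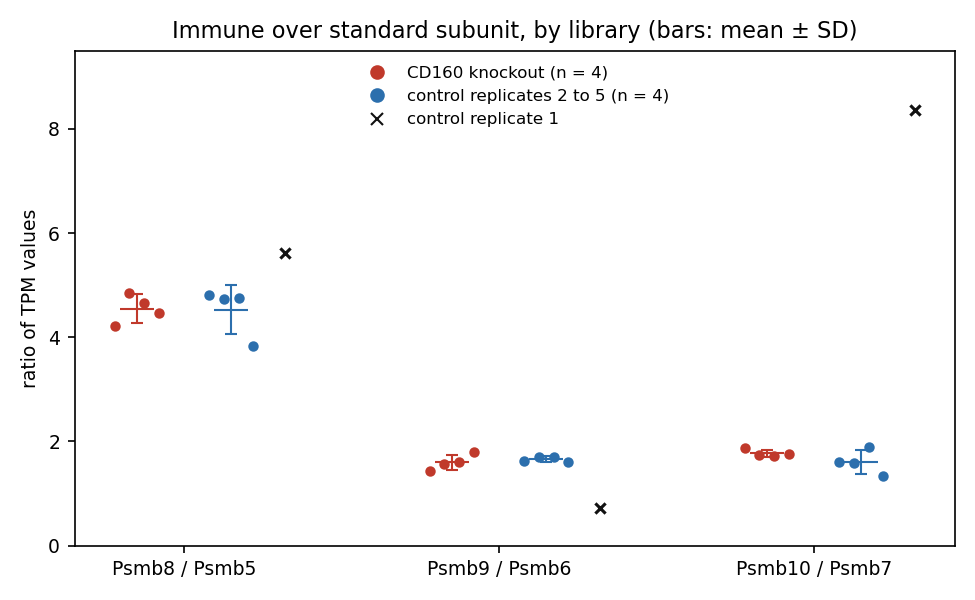
Ratio of the TPM of each immune subunit to that of the standard subunit it replaces (linear axis from 0), by library, with mean ± SD of 4 knockout libraries and of control replicates 2 to 5, and control replicate 1 as a cross. The group means lie within 0.161 of each other in every pair, and the cross at 8.37 for Psmb10 over Psmb7 lies above all other libraries.

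Upstream sequence was compared because the standard and the immune genes are known to answer to different signals, the standard ones to the transcription factor Nfe2l1, which binds antioxidant response elements, and the immune ones to interferon gamma, whose target genes often carry gamma-activated sites. In the 250 bases before RefSeq start sites (GRCm38.p6, both strands), TGACNNNGC, a core of the antioxidant response element, was found for Psmb5, Psmb6, Psmc6, Psmd9 and Psmd12, in 5 of 45 windows of 42 proteasome genes and in 10.2% of all 32851 windows. TTCNNNGAA, the gamma-activated site, was found for Psmb8 and Psmg1 and in 7.02% of all windows, and the core of the interferon-stimulated response element for Psmb3, Psmd4 and Psmd9 and in 2.98%. None of these motifs was found in the windows of Psmb9 and Psmb10, and Psmb7 was not searched. The matches of the other active-site genes, Psmb5, Psmb6 and Psmb8, are shown in capitals. That of Psmb5 lies 47 to 39 bases before the start (chr14:54618023-54618245, minus strand), that of Psmb6 9 to 1 bases before it (chr11:70525338-70525366, plus strand), with the bases printed after it past that start and the whole stretch inside the RefSeq gene range, and that of Psmb8 97 to 89 bases before it (chr17:34198088-34198116, plus strand), where GENCODE also places an exon of another Psmb8 transcript.
Psmb5: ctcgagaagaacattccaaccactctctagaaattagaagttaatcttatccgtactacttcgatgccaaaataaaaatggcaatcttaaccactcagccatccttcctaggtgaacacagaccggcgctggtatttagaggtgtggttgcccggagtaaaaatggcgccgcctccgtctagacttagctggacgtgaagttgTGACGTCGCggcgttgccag
Psmb6: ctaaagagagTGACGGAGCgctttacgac
Psmb8: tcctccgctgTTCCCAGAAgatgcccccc
These are matches of letters, and binding was not measured. When 50 bases after each start are included, the resulting 300-base windows of Psmb9 and Tap1, a transporter of peptides for MHC class I, share 275 bases on opposite strands, with 226 bases between the starts.

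Over all 49 tested genes, 0 passed the adjusted threshold in limma, with 9 libraries (0.0174% of all 11495 genes did) or with 8 (0.0262% of 11457). At an unadjusted p under 0.05 the counts were 0 of 49 with 9 libraries (6.39% of all genes, 5.78% higher in knockout) and 3 of 49 without control replicate 1 (12.8% of all genes), namely Psmd10 and Psmg2, lower in knockout as were 4.41% of all genes, and Psmd3, higher. The groups did not overlap for 0 of 49 with 9 libraries (4.93% of all genes, 3.88% higher and 1.05% lower in knockout) and for 1, Psmd10, with 8 (7.02%, of which 4.01% of all genes were higher and 3.01% lower). Without control replicate 1, 25 differences were positive and 24 negative, where 47.5% of all genes were positive, and the median was 0.00032 against -0.014 over all genes. With 9 libraries 45 of 49 were positive, where 86.7% of all genes were, and the median of 0.40 lay below that of all genes, 0.46. This sign depended on scaling: after median-of-ratios scaling 16 of 49 were positive, with a median of -0.21 against 0.0046 over all genes, and after quantile normalization 30 of 49, with a median of 0.067.

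The 8 libraries set narrow limits on the size of most differences on the log2(TPM + 1) scale. The median standard error of the members' log2 differences was 0.088, compared with 0.18 over all tested genes and 0.14 over the 6668 of them that averaged 10 TPM or more. For 46 of the 49 genes (93.9%) the whole 95% interval lay within a 1.5-fold change of TPM + 1 in either direction. The same held for 52.9% of all tested genes and 66.4% of those averaging 10 TPM or more. For low genes such as Psmb11 and Psme4, which averaged 1.09 and 4.19 TPM, this bound allows a larger change in TPM. Among members averaging 10 TPM or more it held for 44 of 47 (93.6%). Neither set of comparison genes was matched to the members' median level of 144.7 TPM, and the part of level was not tested. The exceptions among the 49 were Psmd3, Psmc3ip and Psme2b. Psme2b is a near copy of Psme2 whose reads can be shared with it, so that the values of both are uncertain. Single genes varied little between the 8 libraries, with a median coefficient of variation of 7.88%, from 3.35% for the ATPase Psmc3 to 30.4% for Psmd3.

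**Figure D4:**
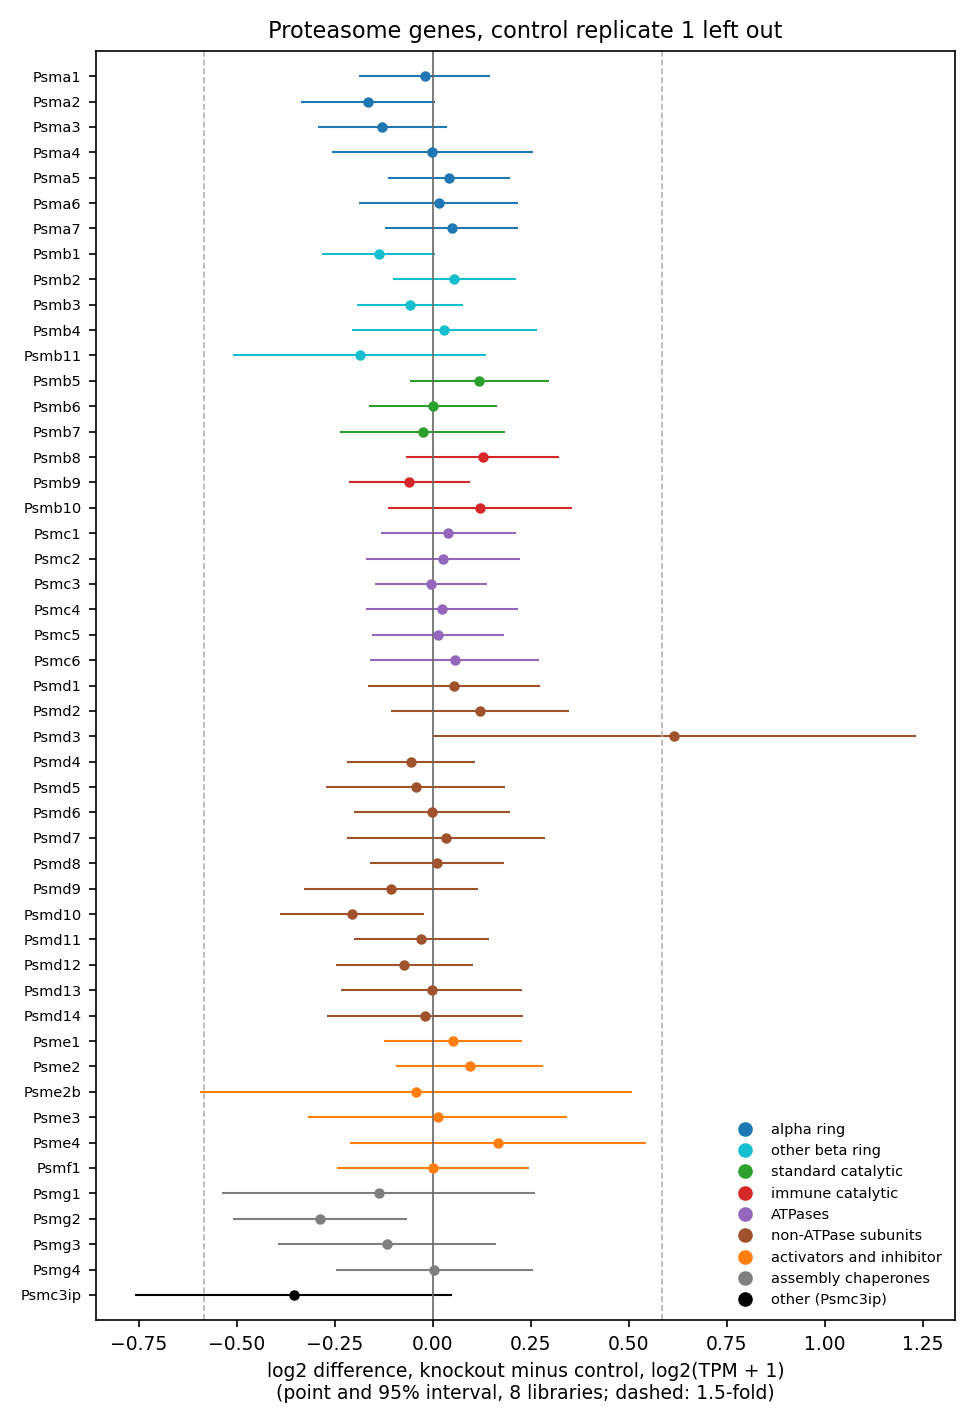
Log2 difference on the log2(TPM + 1) scale, knockout minus control, with its 95% interval from limma. Shown are the 49 tested genes in the 8 libraries without control replicate 1. Colours give the structural class and dashed lines a 1.5-fold change of TPM + 1. All intervals but those of Psmd3, Psmc3ip and Psme2b stay between the dashed lines, and those of Psmg2, Psmd10 and Psmd3 do not reach 0.

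The alpha ring and the other beta subunits, apart from the active subunit Psmb11, form the frame of the core. Among the alpha genes the log2 differences without control replicate 1 were between -0.17 and 0.048, with 3 of 7 positive, and the smallest p belonged to Psma2. Psma2 stood at 513.0, 603.4, 507.5 and 537.1 TPM in knockout and at 156.6, 622.1, 560.5, 630.5 and 608.6 TPM in control libraries, a difference of -0.17 (standard error 0.076, limma adjusted p = 0.405). Psmb1 stood at 664.6, 638.8, 587.3 and 640.7 TPM in knockout and at 322.7, 694.5, 717.7, 659.4 and 713.9 TPM in control libraries, with a difference of -0.14 (0.063, 0.405). In both, 3 of 4 knockout libraries lay below control replicates 2 to 5, and with control replicate 1 the differences were 0.22 and 0.083. Of the remaining beta genes, Psmb2, Psmb3, Psmb4 and Psmb11, none had an adjusted p under 0.647.

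In the 19S cap the ATPases, which unfold substrates, had differences between -0.0036 and 0.056, with 5 of 6 positive. Their smallest p was that of Psmc6, which averaged 100.7 ± 10.5 TPM in knockout and 96.5 ± 6.10 TPM in control replicates 2 to 5 (SD, n = 4 each) and stood at 12.2 TPM in control replicate 1, with an adjusted p of 0.878 in limma. Psmd10, also called gankyrin, an assembly chaperone of the cap (chrX:140948429-140956728, minus strand), stood at 53.9, 55.0, 49.5 and 50.0 TPM in knockout and at 7.79, 61.7, 60.6, 55.9 and 62.7 TPM in control libraries. All knockout values lay below control replicates 2 to 5 and above control replicate 1. The log2 difference without that library was -0.21 (standard error 0.081, unadjusted p = 0.0319, adjusted p = 0.327 in limma), and with it 0.35 (adjusted p = 0.759).

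Psmd3, a scaffold subunit of the lid, had the largest positive difference of the 49 and is named after its values were seen. It stood at 52.7, 68.8, 73.9 and 74.3 TPM in knockout and at 4.65, 23.8, 63.5, 51.6 and 44.6 TPM in control libraries. The groups overlapped, and control replicate 2 was the lowest of the 8 libraries. The difference was 0.62 (standard error 0.27, unadjusted p = 0.0499, adjusted p = 0.389 in limma) without control replicate 1 and 0.34 when control replicate 2 was left out as well (adjusted p = 0.352). Of the 14 Psmd genes 5 had positive and 9 negative differences. Psmc3ip, with -0.36 (0.18, adjusted p = 0.459), had the largest negative one of the 49.

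None of the activators was called, nor was the inhibitor. Psme1 stood at 717.5, 622.3, 578.5 and 620.8 TPM in knockout and at 276.1, 621.9, 611.6, 635.8 and 574.6 TPM in control libraries, a log2 difference of 0.052 (95% interval -0.12 to 0.23, adjusted p = 0.856 in limma without control replicate 1). Psme2 stood at 855.8, 781.1, 793.9 and 802.8 TPM in knockout and at 379.8, 813.0, 686.7, 843.7 and 696.9 TPM in control libraries, a log2 difference of 0.094 (-0.094 to 0.28, adjusted p = 0.703). Both knockout ranges overlapped with control replicates 2 to 5. The ratio of Psme1 to Psme2, which form PA28 rings together, was 0.784 ± 0.0458 in knockout libraries and 0.808 ± 0.0630 in control replicates 2 to 5 (SD, n = 4 each), and 0.727 in control replicate 1. Psmf1, an inhibitor of the core in vitro, averaged 22.5 TPM, and its adjusted p was 0.999.

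Among the assembly chaperones Psmg2, the partner of Psmg1, stood at 48.9, 48.1, 55.3 and 54.9 TPM in knockout and at 12.0, 55.2, 67.4, 67.1 and 64.4 TPM in control libraries. Control replicate 2 lay within the knockout range and control replicates 3 to 5 above it. The difference of -0.29 had the smallest p of the 49 genes without control replicate 1 (standard error 0.098, unadjusted p = 0.0168, adjusted p = 0.270 in limma), and it was 0.17 with all 9 libraries (adjusted p = 0.848). Psmg1 and Psmg3 had differences of -0.14 and -0.12, and Psmg4 0.0042.

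The proteasome genes were not alike in control replicate 1. The library held 4492 TPM of them in all, less than any other library. Yet single genes stood between 3.49% (Psmd5) and 305% (Psmb11) of the mean of the other controls. Psmb11 is a low gene, at 3.75 TPM there against a mean of 1.23 TPM. Psmb3, of the beta ring, stood at 631.9 TPM there, 98.2% of that mean, and Psma7 at 399.7 TPM, 84.3%. The deubiquitinase Psmd14 stood 26.8-fold below the mean of 149.9 TPM, and Psmg4 at 155.4 TPM against 81.2 TPM. The median percentage was 9.37% in the Psmd genes, 11.1% in the ATPases and 22.2% in the alpha ring. It was 23.4% in the activators and inhibitor and 30.9% in the assembly chaperones. In the beta ring it was 40.4% for the standard active subunits, 50.1% for the immune ones and 57.4% for the other beta genes. Across the 49 genes, this library's shift on the log2(TPM + 1) scale had a Spearman correlation of -0.42 with the longest annotated transcript. It was -0.14 across the 11116 tested genes with a known length. The Pearson correlations with log length were closer, at -0.32 and -0.25. Median lengths were 1440 bp and 2898.5 bp, so the sets differ in length. All these values describe genes of a single library. The median shift was -0.89 for the 8 genes under 1000 bp, -2.31 for the 17 from 1000 to 1500 bp and -2.62 for the 24 longer ones, and over all tested genes -0.32, -1.80 and -2.25. The share of short transcripts in this library comes from the same TPM values as these shifts. Its part in them, and that of the loss of detected genes, was not tested.

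**Figure D5:**
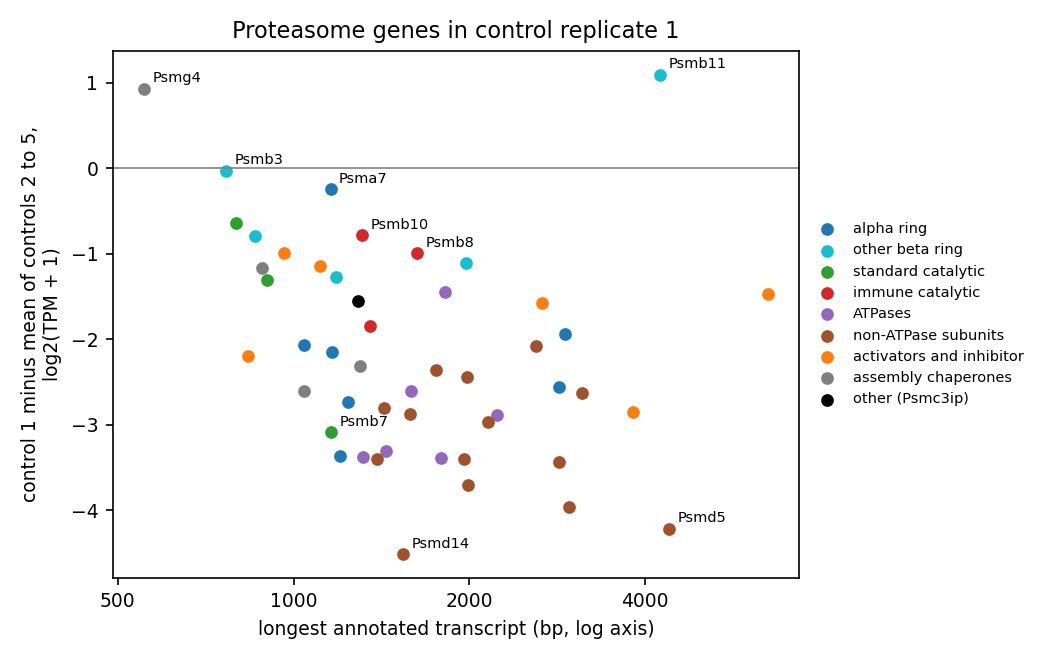
Shift of control replicate 1 from the mean of control replicates 2 to 5 on the log2(TPM + 1) scale, against the longest annotated transcript (bp, log axis), for the 49 tested genes coloured by class. Psmg4 and Psmb11 lie above 0, Psmb3 is at -0.026, and Psmd14 is lowest at -4.51.

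Genes that act with the proteasome gave a mixed picture in the fit without control replicate 1, and again 0 of them were called. Among 22 partners and regulators, such as ubiquitin genes, shuttle factors and the Nfe2l1 pathway, 11 differences were positive and 11 negative, with a median of 0.014. Nfe2l2, the oxidative stress factor, had the smallest p, with 83.2 ± 13.0 TPM in knockout and 52.0 ± 13.9 TPM in control replicates 2 to 5 (SD, n = 4 each), which is 0.69 on the log2 scale (limma adjusted p = 0.185). Nfe2l1 had 0.19 (adjusted p = 0.713), and Pomp, the maturation factor of the core, 0.12 (0.648). Among 10 genes of peptide supply to MHC class I, 9 were positive, with a median of 0.077. Tapbp, which loads peptides, stood at 361.9 ± 12.2 against 296.3 ± 23.5 TPM (SD, n = 4 each; difference 0.29, adjusted p = 0.164), without overlap. Tap1, which shares its start region with Psmb9, stood at 278.5 ± 41.1 against 223.5 ± 15.8 TPM (difference 0.31, adjusted p = 0.294).

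Inducers of the immune subunits and other interferon gamma response genes were also measured, and 0 of them were called. The transcription factor Irf8 and the interferon gamma receptor chain Ifngr2 had log2 differences of 1.18 (limma adjusted p = 0.141) and 1.36 (0.173), whereas Irf1 had 0.044 and Ifng -0.44. Irf8 and Ifngr2 did not overlap between the groups. Among 16 interferon gamma response genes all differences were positive, with a median of 0.51. At an unadjusted p under 0.05, 13 of the 16 were higher in knockout, where 8.44% of all genes were, among them Gbp3 (0.61), Ciita (1.15) and Iigp1 (1.44). The 3 immune subunits had differences between -0.060 and 0.13 in the same fit, and the difference between the lists was not tested. All 10 macrophage markers also had positive differences, with a median of 1.42, and 7 of 8 T cell markers negative ones, with a median of -0.22. Of the tested markers of other cells, 5 of 6 were positive for stroma (median 0.91) and 6 of 7 for colon epithelium (0.36). For dendritic cells it was 5 of 6 (0.47), for neutrophils 3 of 4 (0.29) and for B and plasma cells 2 of 2 (0.56). The 2 CD8 T cell markers went 1 each way. The part of these cells in the interferon gamma list was not tested. In bulk RNA fewer cells of a type and less RNA per cell cannot be told apart.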

How the data were processed

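The deposited table holds TPM for 9 libraries, 1 column each, matched to the labels by title. Libraries followed a modified SMART-Seq2 protocol with paired-end sequencing, per the labels' protocols. RSEM 1.2.31, Bowtie2 2.2.9, Trimmomatic 0.32 and the build GRCm38 are listed, per the submitters' processing notes, and the settings are not given in the sources used here. TPM keeps no depth, and abundant transcripts lower all other values of a library.

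From these values limma 3.58.1 in R 4.3.3 (intensity trend) was fitted to log2(TPM + 1) of every gene reaching 1 TPM in 4 or more libraries, with 9 libraries and without control replicate 1, and tested on simulated data. Differences on this scale understate changes of low genes. Positions and transcript lengths come from GENCODE (release M21, GRCm38) and upstream sequences from RefSeq; lengths are of the longest annotated transcript. Figures used matplotlib 3.10.9.

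The members and gene lists were chosen with earlier results of these data known. Values per library are given for the 6 active-site subunits, Psme1, Psme2 and the gene of smallest p in each class without control replicate 1 (as means for Psmc6), and up to 4 genes of each other list were named by the same p; Psmd3, Psmc3ip, Nfe2l1, Pomp, Irf1 and Ifng and the genes named for their level or for control replicate 1 were added after their values were seen. Alternatives were other pseudocounts (0.1 and 5), filters, scalings, variance and weight settings, the replicate number as a block, and leaving out each library.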

Additional observations from a re-analysis of the deposited data

Results flagged for a closer look

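In the 20 groups of 5 controls, 14 values of control replicate 1 lay far outside the other 4. The rule was Dixon's test of the gap to the nearest library, which about 1 in 20 single groups would pass by chance. The groups are genes and ratios of the same 5 libraries, and this library was already known to stand apart. The 14 values are therefore not independent, and their number cannot be set against that rate. On the log2(TPM + 1) scale that library stood at 6.87 for Psmb5, 7.75 for Psmb6, 3.91 for Psmb7, 7.28 for Psmb9, 6.89 for Psmb10, 8.11 for Psme1, 8.57 for Psme2, 7.30 for Psma2, 8.34 for Psmb1, 3.72 for Psmc6, 3.14 for Psmd10 and 3.70 for Psmg2. Its ratios of TPM were 0.721 for Psmb9 over Psmb6, where the nearest control had 1.61, and 8.37 for Psmb10 over Psmb7, where the nearest had 1.90. Psmb8 and the immune share of the 6 active-site subunits were not among them, and no knockout group had such a value.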

How the results depend on the processing

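With every alternative run, 0 members passed the adjusted threshold in limma, in 9 libraries and without control replicate 1; this includes library quality weights, under which 521 and 302 of all genes passed, against 2 and 3 as reported and 0 to 3 and 0 to 15 under the other alternatives. At an unadjusted p under 0.05 the members numbered 0 to 4 with 9 libraries and 1 to 5 without control replicate 1.

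The sign of many 9-library differences depended on control replicate 1 and on scaling. With median-of-ratios scaling the 9-library log2 difference was -0.25 for Psmb5, -0.50 for Psmb6, -0.019 for Psmb7, -0.30 for Psmb8, -0.32 for Psmb9, -0.35 for Psmb10, -0.35 for Psme1, -0.34 for Psme2, -0.40 for Psma2, -0.55 for Psmb1, -0.24 for Psmd10 and -0.43 for Psmg2. With quantile normalization it was -0.084 for Psmb6, -0.0037 for Psma2, -0.043 for Psmb1, -0.18 for Psmd10 and -0.34 for Psmg2. With library quality weights it was -0.066 for Psmb7, -0.037 for Psmb9, -0.15 for Psma2, -0.16 for Psmb1, -0.21 for Psmd10 and -0.31 for Psmg2. Leaving out 1 of the 9 libraries at a time gave -0.026 to 0.78 for Psmb7, -0.060 to 0.42 for Psmb9, -0.17 to 0.33 for Psma2, -0.14 to 0.15 for Psmb1, -0.21 to 0.51 for Psmd10 and -0.29 to 0.31 for Psmg2, with the negative value each time without control replicate 1. Without that library the sign changed for Psmb6 with quantile normalization (-0.024), and leaving out 1 further library gave -0.045 to 0.028 for Psmb6, -0.062 to 0.042 for Psmb7 and -0.0087 to 0.095 for Psme1. The cause of these changes was not tested. The immune minus standard score differed between groups by -0.063 with 9 libraries (-0.13 to 0.032 on leaving out 1) and by 0.032 with 8 (-0.027 to 0.071).

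Replicate numbers are shared by the groups, and no pairing of the libraries by number was visible. The few correlations below cannot exclude one. Over all tested genes the deviations of same-numbered libraries correlated between -0.14 and -0.017 with 9 libraries. Without control replicate 1 they correlated between -0.22 and 0.0010. The block uses only numbers present in both groups, so it also sets aside control replicate 5 and, without control replicate 1, knockout replicate 1, which leaves 3 pairs; its values therefore differ in the libraries used as well. With the replicate block 0 members were called, 46 of 49 differences were positive with 9 libraries and 17 of 49 without control replicate 1, and in the latter the difference was -0.076 for Psmb6 and -0.038 for Psme1 and 1 member had an unadjusted p under 0.05. Depth is unknown and limits low genes such as Psma8 and Psmb11.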
